A study of Mus musculus with 6 samples.

Results

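The 10 genes described here encode transcription factors known from myeloid blood cells: Spi1, Cebpa, Cebpb, Cebpd, Cebpe, Gfi1, Irf8, Runx1, Id2 and Klf4. They were chosen by name and are 10 of the 27761 rows of the deposited gene table. Each has 1 row, and all 10 passed the expression filter of 1 FPKM (fragments per kilobase of transcript, scaled to library depth) in at least 3 libraries, which 12953 rows passed. The series holds 6 libraries of messenger RNA from mouse bone marrow B220+ cells, 3 from WT mice and 3 from mice whose genotype is labelled PELI2 knockout, with sample titles that read PELI2-CKO. The latter 3 are called knockout-labelled libraries here. Depth was estimated at 16600000 to 18100000 reads per library. B220 is a form of CD45 found on cells of the B lineage and on plasmacytoid dendritic cells. Peli2 encodes a Pellino E3 ubiquitin ligase of Toll-like receptor signalling. The strain, age and sex of the mice, the driver of the deletion and whether mice were pooled are not given in the sources used here. Nothing says that the replicates came from separate mice, and p-values then reflect the spread among these libraries, which may be technical.

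Peli2 was not lower in the knockout-labelled libraries. It stood at 2.03, 2.54 and 1.99 FPKM in WT and at 3.07, 2.70 and 2.47 FPKM in the knockout-labelled libraries, so the groups overlapped. A gene-level value does not separate exons, and a deletion of part of the gene need not show in it. Directions given here therefore follow the labels, not a measured loss of Peli2.

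These factors act as a network when a progenitor cell becomes a granulocyte, a monocyte or a dendritic cell. Spi1 encodes PU.1, an ETS-domain factor that B cells and myeloid cells both need and that opens myeloid enhancers at high dose. The C/EBP proteins are basic leucine zipper factors that pair with each other: C/EBPα starts the granulocyte and monocyte programme, C/EBPε drives the late granule genes, and C/EBPβ and C/EBPδ serve monocytes and inflammatory responses. GFI1 is a repressor, ID2 binds E proteins and keeps them off DNA, IRF8 partners PU.1 in monocytes, dendritic cells and B cells, RUNX1 acts in stem cells and most of their descendants, and KLF4 acts in monocytes and in resting B cells.

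The start regions of 7 of the 10 genes were matched by symbol in the RefSeq promoter table (GRCm38.p6), and Spi1, Cebpd and Cebpe were not. The 250 bases before the start are shown for 4 genes: Cebpa and Cebpb, whose 3 labelled libraries all lay above WT, and Gfi1 and Irf8, which hold a match to a motif of another member. Capitals mark the matches, and each sequence is written 5′ to 3′ on the strand of its gene.
Cebpa (chr7:35119043-35119292, plus strand): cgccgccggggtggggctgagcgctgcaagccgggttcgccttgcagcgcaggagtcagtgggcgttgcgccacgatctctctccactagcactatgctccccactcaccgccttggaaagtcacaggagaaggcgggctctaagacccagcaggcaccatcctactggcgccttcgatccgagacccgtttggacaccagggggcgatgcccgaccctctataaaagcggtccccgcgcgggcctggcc
Cebpb (chr2:167688665-167688914, plus strand): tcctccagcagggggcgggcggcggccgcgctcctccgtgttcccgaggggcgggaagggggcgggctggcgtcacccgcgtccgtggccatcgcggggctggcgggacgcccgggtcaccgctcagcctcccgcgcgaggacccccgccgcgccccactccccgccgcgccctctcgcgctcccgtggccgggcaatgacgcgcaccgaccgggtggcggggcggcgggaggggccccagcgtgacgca
Gfi1 (chr5:107725806-107726055, minus strand): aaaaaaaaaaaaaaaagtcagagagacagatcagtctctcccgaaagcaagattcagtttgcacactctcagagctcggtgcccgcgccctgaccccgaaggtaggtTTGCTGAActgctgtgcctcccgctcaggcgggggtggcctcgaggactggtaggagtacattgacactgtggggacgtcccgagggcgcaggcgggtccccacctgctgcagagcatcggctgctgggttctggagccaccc
Irf8 (chr8:120736108-120736357, plus strand): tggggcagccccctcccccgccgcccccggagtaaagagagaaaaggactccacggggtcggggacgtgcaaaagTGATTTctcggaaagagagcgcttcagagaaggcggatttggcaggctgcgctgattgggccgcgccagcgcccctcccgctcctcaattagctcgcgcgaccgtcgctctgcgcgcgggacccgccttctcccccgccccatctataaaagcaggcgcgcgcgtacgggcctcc

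5 short motifs were searched on both strands of these windows in the 7 matched genes. They were GAGGAAG for PU.1, TTGCNNAA for C/EBP, TGTGGT for RUNX, AAATCA for GFI1 and GGGTGTG for KLF proteins, and no match overlapped another. The Gfi1 window held 1 match to the C/EBP motif, TTGCTGAA, beginning 143 bases before the RefSeq start. That start lies 231 bases inside the span of the gene in the deposited table, so the match (chromosome 5, 107725941 to 107725948) is inside the gene, 88 bases after the first base of that span and in no exon of its 4 GENCODE M21 transcripts. The RefSeq starts of Runx1 and Id2, whose windows held no match, also lie inside their genes, by 75 and 1048 bases. The Irf8 window held 1 match to the GFI1 motif, on the opposite strand, 175 bases before the start. The C/EBP motif is in 9.56% and the GFI1 motif in 12.4% of all 32851 windows of this length in the table, and the PU.1, RUNX and KLF motifs are in 10.6%, 14.0% and 6.93%. The other 5 windows held no match, which says only that these letters are not in them. The Cebpb window has a G and C content of 81.6%, against a median of 52.4% over all windows.

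Within the WT libraries the levels, which FPKM states per length, spanned from Klf4 down to Cebpd. Klf4 was highest with a mean of 202 FPKM, above 98.4% of tested genes by its mean over the 6 libraries. Irf8 followed at 129.6 FPKM and was clear of its neighbours. Spi1 at 53.8 and Cebpb at 51.7 FPKM overlapped and so were not ordered, and Cebpe followed at 33.3 FPKM. Gfi1 at 18.2 and Id2 at 17.1 FPKM overlapped, as did Cebpa at 14.4 and Runx1 at 13.5 FPKM. Cebpd was lowest at 7.97 FPKM, above 55.2% of tested genes. In the knockout-labelled libraries the first places were the same, Cebpb and Spi1 again overlapped at 64.9 and 60.6 FPKM, and Cebpa, at 23.4 FPKM, lay clear above Id2 and Gfi1.

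The comparison of the groups asks how the levels of these factors differ with the knockout label. All 4 C/EBP genes, Spi1 and Irf8 had higher values in each knockout-labelled library than in any WT library, Gfi1 and Runx1 had lower values in each, and Id2 and Klf4 overlapped. None of the 10 passed the test over all genes (limma with Benjamini-Hochberg adjustment, adjusted p between 0.121 and 0.549). In that test 0.0232% of genes passed, 3 higher and 0 lower. The 6 members that were apart upward stand against 11.5% of all tested genes, the 2 apart downward against 14.3%, and the 8 in all against 25.8%. With the unadjusted p under 0.05 were 6 members on the higher and 1 on the lower side, where 9.2% of tested genes were higher and 8.88% lower. A higher mean was found for 7 of the 10, against 46.4% of tested genes. The median log2 fold change of the 10 was 0.20, and that of all tested genes was -0.01. When libraries were rescaled to a common total these medians were 0.12 and -0.09, and 6 of the 10 had a higher mean. Before rescaling, the FPKM of a library summed to 309301 to 323155 in WT and to 331189 to 338098 with the knockout label. After rescaling, Spi1 and Irf8 no longer had an unadjusted p under 0.05 (limma), and Runx1, on the lower side, did. The 4 C/EBP genes and Gfi1 stayed under 0.05. These counts describe 10 genes chosen by name with earlier results of these data known. Their distance from the shares of all tested genes was not tested.

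**Figure D1:**
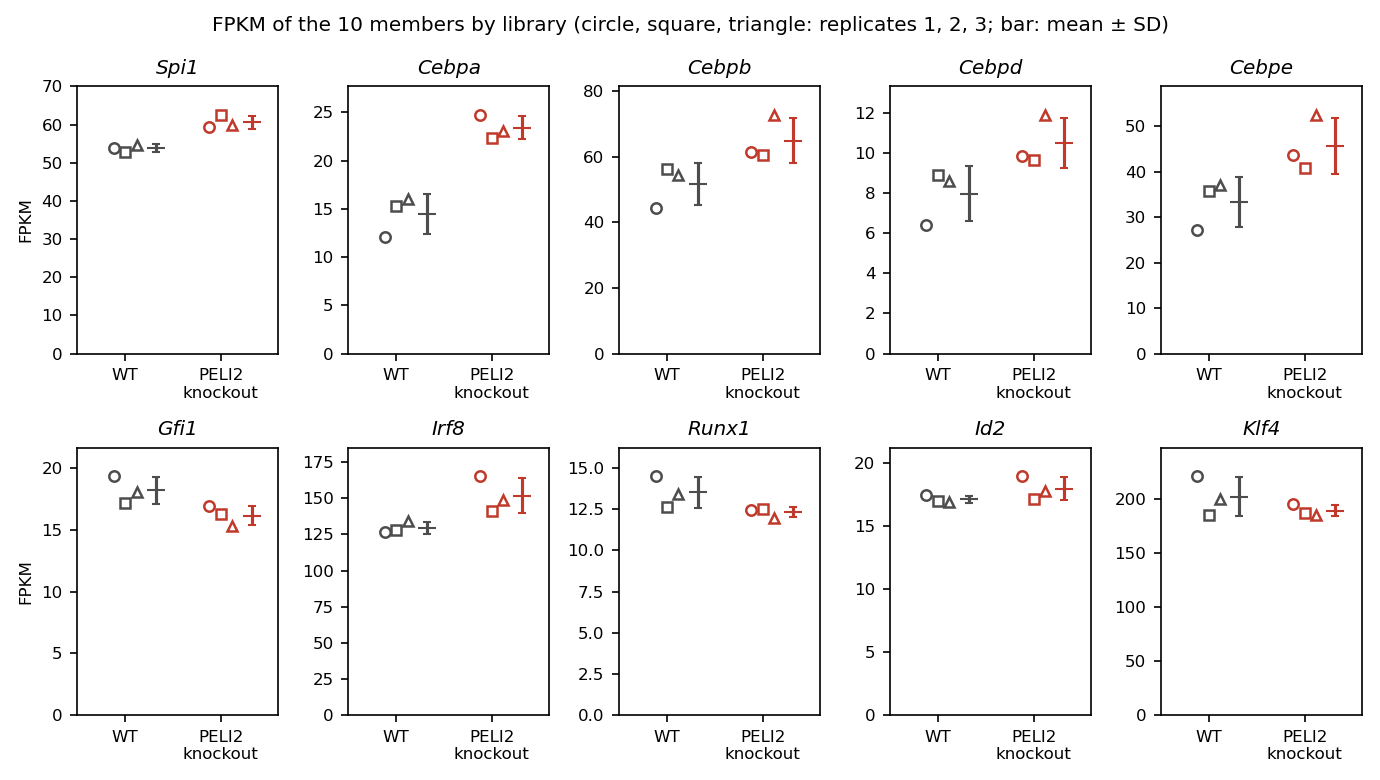
FPKM of each gene (vertical axis, from 0) in the 3 WT libraries (grey) and the 3 libraries labelled PELI2 knockout (red), with the mean and SD as a bar beside the points. The red points of Cebpa sit between 22.4 and 24.8 FPKM and the grey ones between 12.1 and 15.97 FPKM, while the points of Klf4 and Id2 overlap.

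Cebpa differed most. Its FPKM was 12.1, 15.3 and 15.97 in WT replicates 1 to 3 and 24.8, 22.4 and 23.1 in the knockout-labelled libraries, so its lowest labelled library lay above every WT library. The means were 14.4 ± 2.10 (SD, n = 3) and 23.4 ± 1.22 FPKM (SD, n = 3), a ratio of 1.62. On the scale of log2(FPKM + 1), which understates changes of low genes, the difference was 0.67 with a standard error of 0.10 (limma, adjusted p = 0.121). The gene (ENSMUSG00000034957, GRCm38 chromosome 7, 35119293 to 35121928, plus strand) overlaps the antisense transcript Gm45091, which was at 0 in 4 of the 6 libraries and at most 0.239 FPKM in the other two.

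Cebpe, the factor of the late granulocyte stages, stood at 27.1, 35.8 and 37.1 FPKM in WT and at 43.6, 40.7 and 52.5 FPKM in the knockout-labelled libraries. The groups did not overlap, and WT replicate 1 was the lowest of all. Its log2 difference came to 0.45 with a standard error of 0.14 (limma, adjusted p = 0.210), from 33.3 ± 5.44 to 45.6 ± 6.15 FPKM (SD, n = 3 each). The gene (ENSMUSG00000052435, chromosome 14, 54710360 to 54712174, minus strand) has 1 annotated transcript and overlaps no other gene, and its values stand for an estimated 599 to 1176 reads per library.

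Cebpb stood at 44.4, 56.4 and 54.4 FPKM in WT and at 61.4, 60.5 and 72.8 FPKM in the knockout-labelled libraries. WT replicate 1 was again lowest and labelled replicate 3 highest, and the groups were apart by a gap smaller than the spread within either. The log2 difference was 0.32 with a standard error of 0.11 (limma, adjusted p = 0.228), on an estimated 1189 to 1976 reads per library. Cebpb (ENSMUSG00000056501, chromosome 2, 167688915 to 167690418, plus strand) shares part of its span with Tmem189 on the other strand, and strand use in counting is not given in the sources used here. The FPKM of Tmem189 ran from 13.6 to 15.1 over the WT and from 14.0 to 14.5 over the knockout-labelled libraries.

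Cebpd, the lowest of the family, stood at 6.40, 8.90 and 8.61 FPKM in WT and at 9.87, 9.66 and 11.9 FPKM in the knockout-labelled libraries. The groups were apart with the same libraries at the ends as for Cebpb and Cebpe. Cebpd differed by 0.36 (log2) with a standard error of 0.13 (limma, adjusted p = 0.235). Cebpd (ENSMUSG00000071637, chromosome 16, 15887286 to 15891031, plus strand) overlaps Spidr on the other strand, which stood at 3.43 to 4.13 FPKM over the 6 libraries.

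These differences were smaller without WT replicate 1. The log2 difference was then 0.55 for Cebpa, 0.31 for Cebpe, 0.22 for Cebpb and 0.23 for Cebpd, against 0.36 for Cebpd with all libraries, a change of more than 1.5 times. In WT replicate 1 the summed FPKM of the 7 neutrophil markers was also lowest, at 5024, against 6652 and 7015 in the other WT libraries. The part of these markers in the differences was not tested. Without labelled replicate 3 the log2 difference was also smaller for Cebpe, at 0.34, Cebpb, at 0.24, and Cebpd, at 0.28. For Cebpa it was then 0.68.

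**Figure D2:**
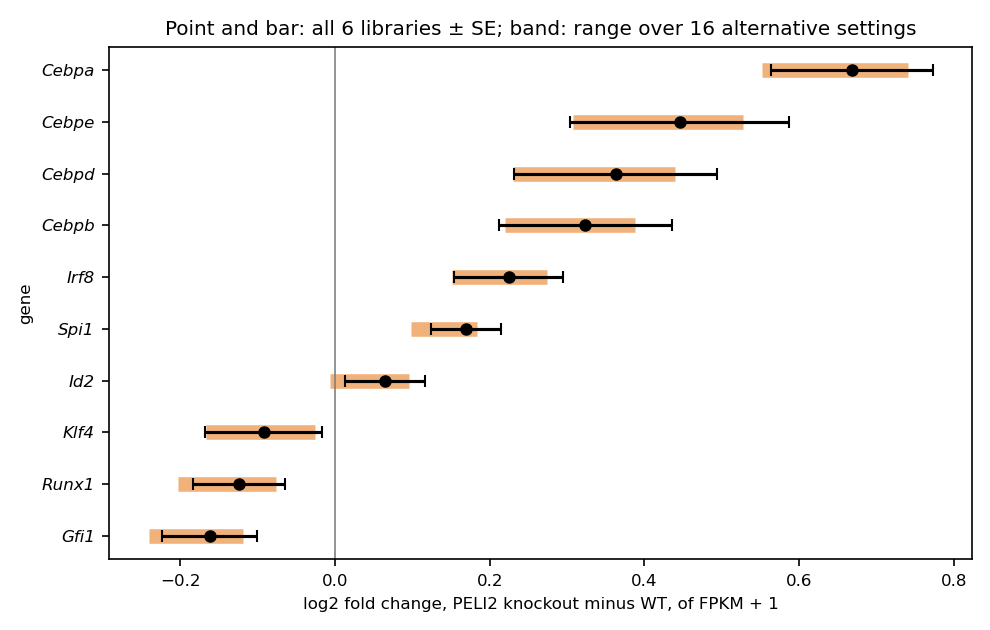
Log2 fold change of FPKM + 1, PELI2 knockout minus WT (horizontal axis), for each gene, with the standard error as a bar and the range over 16 alternative settings as a band. Cebpa lies furthest to the right at 0.67 and Gfi1 furthest to the left at -0.16, and the band of Id2 reaches across 0.

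The C/EBP genes together gave 90.0, 116.3 and 116.1 FPKM in WT and 139.6, 133.2 and 160.3 FPKM in the knockout-labelled libraries. Cebpb was 48.2% ± 1.27 of this sum in WT and 44.9% ± 0.85 in the knockout-labelled libraries, Cebpe was 30.9% ± 0.95 and 31.5% ± 1.13, and Cebpd was 7.39% ± 0.27 and 7.25% ± 0.18 (SD, n = 3 each). Cebpa was 13.4% ± 0.30 and 16.3% ± 1.72. Its share lay between 13.2% and 13.8% in WT and between 14.4% and 17.7% in the knockout-labelled libraries, so the groups were apart, as they were for Cebpb in the other direction. Those of Cebpd and Cebpe overlapped.

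**Figure D3:**
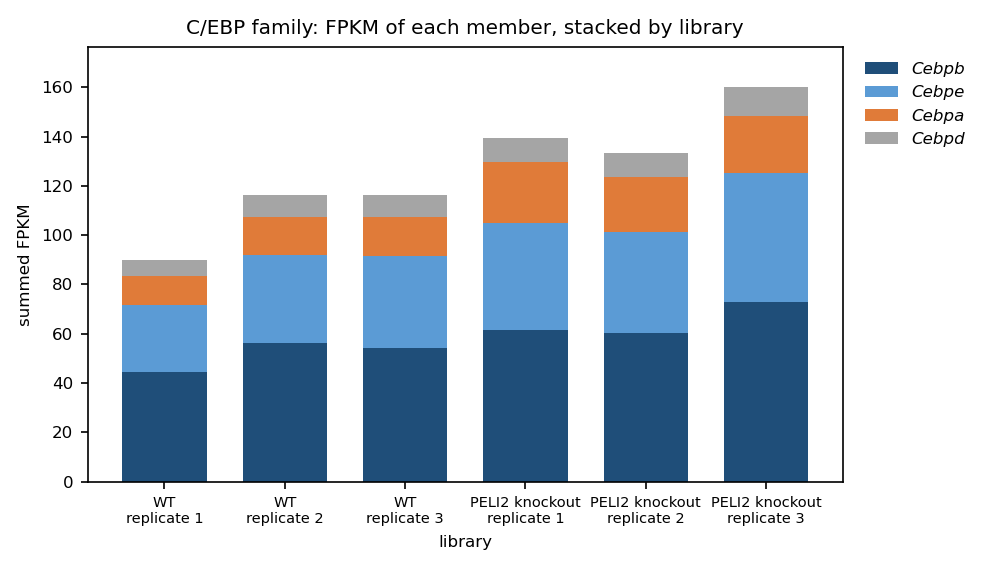
FPKM of the 4 C/EBP genes stacked for each of the 6 libraries (vertical axis from 0). The stacks of the knockout-labelled libraries, 133.2 to 160.3 FPKM, are taller than those of WT, 90.0 to 116.3 FPKM, and Cebpb and Cebpe are the thickest parts of every stack.

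Spi1 varied little within WT, with an SD of 1.83% of its mean against 1.62% for Id2 and 17.1% for Cebpd. It stood at 54.0, 52.7 and 54.7 FPKM in WT and at 59.5, 62.6 and 59.8 FPKM in the knockout-labelled libraries. The gap between the groups was wider than the range within either, and the ratio of the means was 1.13. The log2 difference was 0.17 with a standard error of 0.04 (limma, adjusted p = 0.171), and it lay between 0.15 and 0.18 when any 1 library was left out. Rescaled to a common total it was 0.10 (limma, adjusted p = 0.294), a change of more than 1.5 times. Spi1 (ENSMUSG00000002111, chromosome 2, 91082390 to 91115756, plus strand) overlaps no other annotated gene.

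Irf8, which encodes the partner of PU.1, stood at 126, 128 and 134 FPKM in WT and at 165, 141 and 149 FPKM in the knockout-labelled libraries. The groups were apart and labelled replicate 1 was highest. The log2 difference was 0.22 with a standard error of 0.07 (limma, adjusted p = 0.208), and 0.16 without labelled replicate 1. Irf8 (ENSMUSG00000041515, chromosome 8, 120736358 to 120756694, plus strand) lies inside the read-through gene model Gm20388. Its start region is the one shown above with a match to the GFI1 motif.

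Gfi1, the repressor that holds back monocyte genes in granulocyte precursors and also acts in lymphoid precursors, differed in the other direction from the C/EBP genes. It stood at 19.4, 17.2 and 18.1 FPKM in WT and at 16.9, 16.3 and 15.3 FPKM in the knockout-labelled libraries. The groups were apart by a small gap, and WT replicate 1 was highest. Gfi1 differed by -0.16 (log2) with a standard error of 0.06 (limma, adjusted p = 0.249). Gfi1 (ENSMUSG00000029275, chromosome 5, 107716657 to 107726036, minus strand) overlaps A430072P03Rik on the other strand, which stood at 1.59 to 2.47 FPKM over the 6 libraries.

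Runx1 stood at 14.5, 12.7 and 13.4 FPKM in WT and at 12.5, 12.5 and 11.97 FPKM in the knockout-labelled libraries. Its highest labelled library lay just under its lowest WT library. The log2 difference was -0.12 with a standard error of 0.06 (limma, adjusted p = 0.331), -0.08 without WT replicate 1 and -0.20 when libraries were rescaled to a common total (limma, adjusted p = 0.183). Runx1 (ENSMUSG00000022952, chromosome 16, 92601466 to 92826149, minus strand) has 7 annotated transcripts, and a gene-level value does not separate its start sites. It overlaps the antisense gene Gm26626, which stood at 2.61, 1.35 and 1.46 FPKM in WT and at 1.70, 0.99 and 1.48 FPKM in the knockout-labelled libraries.

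Klf4 and Id2 gave no separation. Klf4 (ENSMUSG00000003032, chromosome 4, 55527143 to 55532466, minus strand) stood at 221, 185 and 199.8 FPKM in WT and at 195, 187 and 185 FPKM in the knockout-labelled libraries. Its log2 difference of -0.09 with a standard error of 0.08 (limma, adjusted p = 0.549) was -0.03 without WT replicate 1, -0.15 without WT replicate 2, -0.17 when rescaled to a common total, -0.15 with quantile normalization and -0.06 with library weights. Id2 (ENSMUSG00000020644, chromosome 12, 25093799 to 25097140, minus strand), an inhibitor of E proteins that innate lymphoid and dendritic cells express, stood at 17.4, 16.9 and 16.9 FPKM in WT and at 18.9, 17.1 and 17.8 FPKM in the knockout-labelled libraries. Its log2 difference was 0.06 with a standard error of 0.05 (limma, adjusted p = 0.536), 0.03 without labelled replicate 1 and -0.01 when libraries were rescaled to a common total. A p of this size does not show that the levels were alike.

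Genes used as markers of several cell types were detected in the B220+ fraction, and the sum of each marker list is given here. The 8 B cell markers summed to 1713 to 2023 FPKM in WT and to 1388 to 1497 FPKM in the knockout-labelled libraries, with Cd79a, the signalling chain of the B cell receptor, at 636 ± 76.4 and 503 ± 13.9 FPKM (SD, n = 3 each). The 7 neutrophil markers summed to 5024 to 7015 and to 7659 to 9011 FPKM, with S100a8, a calcium-binding protein of neutrophils, at 2267 ± 387 and 3215 ± 339 FPKM. The 8 monocyte markers summed to 779 to 1079 and to 1166 to 1389 FPKM, with F13a1 at 7.50 ± 1.49 and 14.4 ± 1.97 FPKM. The groups were apart in all 3 sums. S100a8 and S100a9 made up 92.6% of the neutrophil sum, and without them the other 5 markers summed to 432 to 599 and to 450 to 694 FPKM, which overlap. Lyz2 made up 73.5% of the monocyte sum. Without it the other 7 markers summed to 214 to 271 and to 321 to 348 FPKM, which do not overlap. Of the 7 neutrophil markers 3 were apart, of the 8 monocyte markers 8, all higher, and of the 8 B cell markers 4, all lower. Of all tested genes 11.5% were apart upward and 14.3% downward. In bulk RNA, fewer cells of a type and less RNA per cell cannot be told apart. Each of the 7 neutrophil and 8 monocyte markers passed the filter and had a higher mean with the knockout label, as had 46.4% of tested genes. Each of the 8 B cell markers had a lower mean, and none of these markers passed over all genes (limma). Retnlg, a neutrophil marker, changed sign when libraries were rescaled to a common total, with quantile normalization and without WT replicate 1. The part of these cell types in the values of the 10 factors was not tested.

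Of the other 6 marker lists, the sums of the conventional dendritic cell and the stem and progenitor markers were apart at low levels, and the other 4 overlapped between the groups. In 3 of the 6 this turned on the genes that made up over 33.3% of the sum. The 7 plasmacytoid dendritic cell markers summed to 832 to 906 and to 850 to 984 FPKM, which overlap. Ly6d, which early B lineage cells also express, made up 49.6% of this sum and was the 1 marker with a lower mean, at 472 ± 45.5 and 418 ± 20.2 FPKM (SD, n = 3 each). The other 6 summed to 383 to 413 and to 448 to 543 FPKM, so without Ly6d the groups were apart. These 6 had higher means, or 5 of them when rescaled to a common total, among them Siglech, a receptor of these cells, at 80.1 ± 10.9 and 109 ± 6.55 FPKM. The 5 conventional dendritic cell markers summed to 20.4 to 22.8 and to 25.5 to 30.0 FPKM, with Xcr1 and Zbtb46 under the filter. Without Itgax they summed to 10.2 to 14.9 and to 14.5 to 17.6 FPKM, which overlap. The 7 T and NK cell markers summed to 70.3 to 88.1 and to 85.7 to 115 FPKM, with Cd3e under the filter. The 5 basophil and mast cell markers summed to 46.2 to 111 and to 54.4 to 96.3 FPKM. The 5 erythroid markers summed to 7517 to 11370 and to 11076 to 14075 FPKM, with Klf1 at 28.4 ± 6.39 and 44.0 ± 7.81 FPKM. Without the globins Hba-a1 and Hbb-bs, 99.0% of this sum, the other 3 summed to 68.8 to 107.8 and to 119 to 162 FPKM, which do not overlap. The 6 stem and progenitor markers summed to 6.89 to 8.33 and to 8.996 to 10.5 FPKM, with Hlf, Mecom and Meis1 under the filter and Mecom under 0.1 FPKM in every library.

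Granule, receptor and phagocyte genes, listed as possible targets of these factors, had higher means with the knockout label. Binding of the factors at these genes was not measured. All 7 primary granule genes did, with a median log2 fold change of 1.33 against -0.01 over all tested genes. Ctsg, cathepsin G, averaged 33.6 ± 7.85 FPKM over the WT and 107 ± 22.5 FPKM over the knockout-labelled libraries (SD, n = 3 each). Mpo, Prtn3 and Elane, the other enzymes of these granules that the naming rule gives, had log2 differences of 1.37, 1.57 and 1.33. All 9 secondary granule genes, many of which depend on C/EBPε, had higher means with a median of 0.41, led by Cd177 at 90.0 ± 11.1 and 134.7 ± 9.01 FPKM and Lcn2 at 207 ± 35.9 and 297 ± 13.1 FPKM. All 10 myeloid receptor and phagocyte genes had higher means with a median of 0.33. Csf2ra, a chain of the receptor for GM-CSF, stood at 74.4 ± 3.54 and 90.9 ± 2.54 FPKM, and Cd14, the co-receptor for lipopolysaccharide, at 9.66 ± 2.78 and 18.0 ± 1.17 FPKM. With all 6 libraries none of these 26 genes passed (limma, adjusted over all genes), and the unadjusted p was under 0.05 for 7 of 7, 6 of 9 and 7 of 10, each of them higher, where 9.2% of tested genes were so. Leaving out WT replicate 1 was an alternative for the lists chosen after seeing the data. Mpo then passed (limma, adjusted p = 0.0353), though its log2 difference was smaller, at 1.16 against 1.37 with all libraries. The medians were 1.09, 0.29 and 0.25, and Mmp8 and Csf3r changed sign. The summed neutrophil and monocyte markers were higher in the same libraries, as given above, and their part was not tested.

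**Figure D4:**
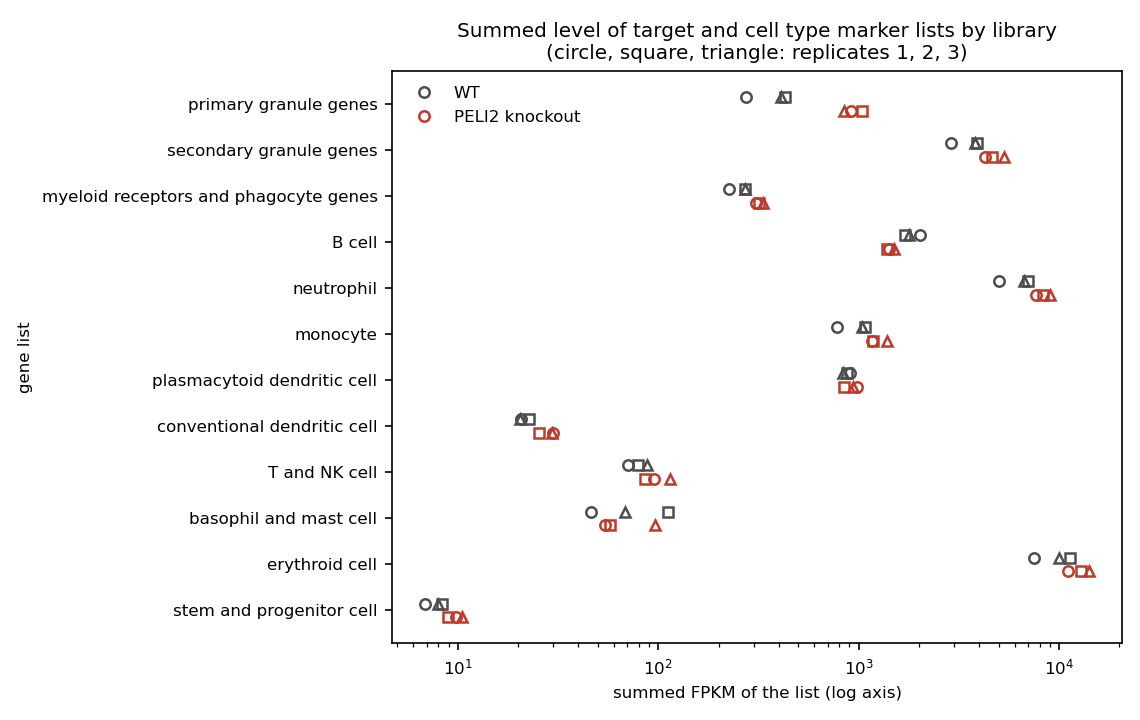
Summed FPKM (horizontal log axis) of the 3 lists of granule, receptor and phagocyte genes and the 9 cell type marker lists in each library, WT in grey and PELI2 knockout in red. The primary granule genes show the widest gap, 273 to 430 FPKM in WT against 843 to 1034 FPKM in the knockout-labelled libraries, the B cell markers lie the other way round, and the sums for plasmacytoid dendritic cells overlap, which without Ly6d they did not.

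Partners and relatives of the members had means on both sides. Of 22 such genes 21 were tested, 12 with a higher and 9 with a lower mean; their median log2 difference was 0.11 (0.04 when rescaled to a common total, where Klf2 changed sign). None passed over all genes (limma), and the unadjusted p was under 0.05 for 7 higher and 7 lower genes, where 9.2% and 8.88% of tested genes were so. The 4 with the smallest p all had higher means. Nfil3, a factor of innate lymphoid and dendritic cells, stood at 9.76 ± 1.18 and 12.7 ± 0.76 FPKM. The RUNX relatives of Runx1 stood at 28.1 ± 2.08 and 35.2 ± 3.28 FPKM for Runx2 and at 12.1 ± 0.47 and 13.6 ± 0.17 FPKM for Runx3, so both had the opposite sign to Runx1. Etv6, an ETS-domain repressor, stood at 14.3 ± 0.53 and 16.3 ± 0.86 FPKM (SD, n = 3 each).

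The B lineage factors, some of which oppose the myeloid programme, had lower means in 11 of 12 cases, and their median log2 difference was -0.36. The exception, Bcl11a, also had a lower mean when rescaled to a common total (list median -0.44) or without WT replicate 1 (list median -0.28). Ebf1 and Pax5, the factors that set the B cell fate, had log2 differences of -0.44 and -0.38, and Lef1 and Ikzf3 had -0.46 and -0.37. None passed over all genes (limma), and the unadjusted p was under 0.05 for 9 lower and 0 higher genes, where 8.88% of tested genes were lower and 9.2% higher. The groups were apart for 11 of the 12, all lower, as were 14.3% of tested genes. The summed B cell markers were lower in the same libraries, as given above, and their part was not tested.

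Ratios within a library barely depend on how the library is scaled, and 9 of them were compared between the groups. Relative to Irf8, Cebpa had a log2 ratio of -3.17 ± 0.19 in WT and -2.69 ± 0.04 in the knockout-labelled libraries, a difference of 0.48. Gfi1 relative to Irf8 differed by -0.40, from -2.82 ± 0.11 to -3.22 ± 0.10. Cebpe relative to Klf4 differed by 0.55, or 0.34 without WT replicate 1. Spi1 relative to Spib, the ETS relative that B cells and plasmacytoid dendritic cells express, differed by 0.49. Id2 relative to Id3, another inhibitor of E proteins that B cells express, differed by 0.36. Both denominators had lower means with the knockout label. The log2 difference was -0.32 for Spib against 0.17 for Spi1, and -0.28 for Id3 against 0.06 for Id2. In each of these 5 ratios the groups did not overlap, and each gave p = 0.1 by exact permutation (two-sided), the smallest that 3 against 3 libraries can give (0.129 adjusted over the 9 ratios). The 9 ratios were chosen with earlier results of these data known, and ratios of other genes were not compared. Their separation is therefore no independent support.

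The other 4 ratios set a factor against a list. Cebpa relative to the summed primary granule genes had a log2 ratio of -4.66 ± 0.16 in WT and -5.31 ± 0.19 in the knockout-labelled libraries, a difference of -0.65 with the groups apart (two-sided exact permutation test, p = 0.1, adjusted p = 0.129). The ratio was lower in each knockout-labelled library than in any WT library. Cebpe relative to the secondary granule genes stood at -6.73, -6.76 and -6.67 in WT and at -6.62, -6.83 and -6.66 in the knockout-labelled libraries. The difference of 0.02 was smaller than the SD in either group (two-sided exact permutation test, p = 0.8, adjusted p = 0.8). With quantile normalization it was 0.14. Klf4 relative to the monocyte markers differed by -0.47 with the groups apart (two-sided exact permutation test, p = 0.1, adjusted p = 0.129), and by -0.26 without WT replicate 1. Without Lyz2 in the list this difference was -0.54 with the groups again apart. Irf8 relative to the plasmacytoid dendritic cell markers differed by 0.14, and the groups overlapped (two-sided exact permutation test, p = 0.2, adjusted p = 0.225). The sign turned without Ly6d in the list, from -1.62 ± 0.07 in WT to -1.73 ± 0.08 in the knockout-labelled libraries, a difference of -0.11 with the groups again overlapping (two-sided exact permutation test, p = 0.2, adjusted p = 0.225).

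**Figure D5:**
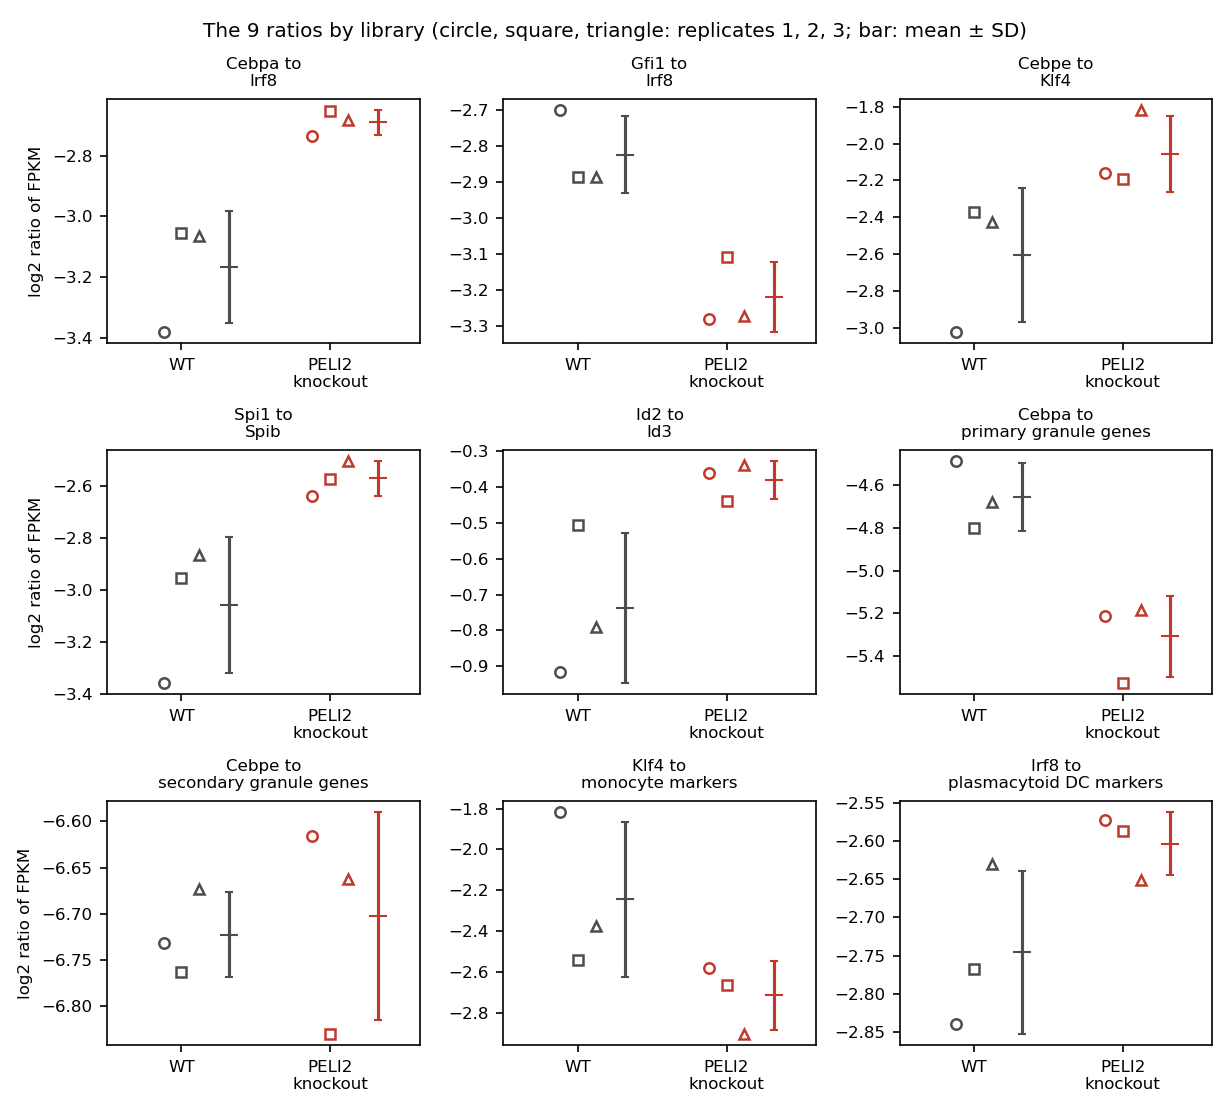
Log2 ratio of FPKM (vertical axis, a separate range in each panel) for the 9 ratios, with WT in grey, PELI2 knockout in red, and the mean and SD beside the points. The points overlap for Cebpe to the secondary granule genes and for Irf8 to the plasmacytoid dendritic cell markers and are apart in the other 7 panels.

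For 8 of the members, the tested gene with the most similar course over the 6 libraries is given here, by the root mean square difference of mean-centred log2(FPKM + 1). It was Clec12a for Cebpe, Tpst2 for Cebpb and Plaur for Cebpd, each at 0.04, and Nucb2 for Irf8, Arf6 for Gfi1, Fbxl19 for Klf4 and 3110062M04Rik for Id2, each at 0.02. It was Gm44103 for Spi1, at 0.01. Gm44103, at 1.03 to 1.46 FPKM, and 3110062M04Rik, at 1.14 to 1.36 FPKM, lie near the filter, where adding 1 shrinks log2 changes. Plaur, the urokinase receptor, stood at 43.5, 59.6 and 59.4 FPKM in WT and at 66.8, 65.3 and 74.2 FPKM in the knockout-labelled libraries, and so had the same lowest and highest libraries as Cebpd. With 6 libraries and 12943 genes to choose from, close matches are easily found, and members that vary little match other genes that vary little.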

How the data were processed

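The table holds FPKM per gene and library as the authors deposited it, with no scaling across libraries stated. Tools listed in the submitters' processing notes, without their roles, are RSEM 1.2.12, DESeq2 1.4.5, Bowtie2 2.2.5 and HISAT2 2.0.4, and the build listed is GRCm38.p6. A count model was not applied to these values. Depth was estimated at 16600000 to 18100000 reads per library: for genes with 1 GENCODE M21 transcript, at least 99.2% of low values were whole reads within 0.03 at these totals. Rows with FPKM of 1 or more in 3 libraries (12953) entered limma 3.58.1 (R 4.3.3) as log2(FPKM + 1) (eBayes with a trend, no block, two-sided, Benjamini-Hochberg adjustment, threshold 0.05). The fit was also run on simulated data, whose outcome is not reported here and is not used as support. Ratios used a pseudocount of 0.1. Of 2 rows named Itgam, the one with its GENCODE ID was used. The members, lists, ratios and tests were chosen with earlier results of these data known, and the motifs after seeing the values. The text names all members, the targeted gene, up to 4 genes per list with the smallest p, the genes most like each member (for 2 members not reported here), and genes that overlap a member by position. Alternatives were other pseudocounts, filters, scalings and variance models, a replicate block, each library left out and, chosen after seeing the data, list sums without genes that made up over 33.3% of them.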

Additional observations from a re-analysis of the deposited data

How the results depend on the processing

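None of the 10 members passed under any of the 16 alternatives (limma), and the lowest adjusted p of a member ranged from 0.084 with library weights to 0.366 without PELI2_knockout replicate 1. The number of genes called over the whole table was 3, 1 with a filter of 5 FPKM, 6 with eBayes without a trend, and 2 to 16 when 1 library was left out, with 16 without PELI2_knockout replicate 3. The sign of Id2 reversed when libraries were rescaled to a common total (-0.0059), and no other member changed sign. The log2 ratio of Cebpe to the secondary granule genes, 0.02 with all libraries, ranged from -0.023 to 0.084 when 1 library was left out (-8.1e-05 without WT replicate 2). The other 8 ratios kept their sign under those 12 alternatives. With list sums that left out each gene over 33.3% of the sum, an alternative chosen after seeing the data, the ratio of Irf8 to the plasmacytoid dendritic cell markers reversed (-0.11 without Ly6d) and the other 3 ratios to a list kept their sign. Deviations of same-numbered libraries correlated at 0.10, 0.04 and 0.09 over genes, and those of differently numbered libraries at -0.11 to 4.5e-05. These correlations were small, and whether the replicate numbers pair the libraries is not given in the sources used here. With the replicate number as a block, 4 genes were called and 0 members (limma, lowest member adjusted p = 0.157), and the ratio differences were as without it, where 3 pairs cannot go below p = 0.25 in an exact test. The lowest value of a member was 6.40 FPKM, and for Cebpb and Cebpe, which have 1 transcript each, the values stand for at least 599 estimated reads per library.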
